A study of Mus musculus with 4 samples.

Results

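Proteoglycans, elastic fibre proteins and matricellular proteins make up much of the extracellular matrix that stromal cells lay down around tumor cells. The 44 genes described here were chosen by name, as small leucine-rich proteoglycans, large aggregating proteoglycans, elastic fibre and microfibril genes, fibulins, latent TGF-beta binding proteins, emilins, thrombospondins, the SPARC family, fibronectin, periostin, tenascins and other matrix glycoproteins. They were 44 of 22911 gene symbols that could be assigned to the arrays, and they were read by 65 probes on 74 spots. Small leucine-rich proteoglycans decorate collagen fibrils and bind growth factors. Elastic fibres consist of an elastin core in a scaffold of fibrillin microfibrils, on which fibulins assist assembly and latent TGF-beta binding proteins hold the growth factor in store. Matricellular proteins such as periostin, tenascin-C and the thrombospondins are secreted into the matrix, where they act on cells more than they bear load, and in adult tissue fibroblasts and other mesenchymal cells are their usual source.

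RNA was measured with 1 Agilent one-color array for each of 4 sorted populations from subcutaneous Bcr-Abl+ tumors, 12 days after 15000 cells per mouse had been injected in Matrigel. Mesenchymal stroma cells (MSCs, sorted as GFP-, CD45-, Ter119- and CD31- cells) and CD8+ T cells (sorted as GFP-, TCRb+ and CD8+ cells) came from wild type (Wt) mice and from Sipa1-/- mice, which lack a GTPase-activating protein for Rap1 in every cell of the host. All mice were of strain C57BL/6Ncr and 8 weeks old, every tumor carried the GFP-marked Bcr-Abl oncogene, and 5 mice of each genotype were used, although whether their cells were pooled is not given in the sources used here. The MSC gate was made of negative markers, so that other cells without CD45, Ter119 and CD31 could be in it. Because each condition had 1 array, no test was possible, and a difference has no replicate check.

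Signals are given as the log2 of the background-corrected spot signal minus the 75th percentile of the array, so that 0 is the 75th percentile itself, and a log2 ratio of 1 is a 2-fold difference. The lowest signal well above background was -5.86 in Wt and -5.79 in Sipa1-/- MSCs, and -5.56 and -5.49 in CD8+ T cells. Between 60.3% and 65.3% of 59305 spots lay well above background, no spot was saturated, and the median SD among the 10 spots of a repeated probe was between 0.040 and 0.045, which covers spot noise and not the spread between mice. Both Sipa1 probes were lower on the Sipa1-/- arrays, at 3.78 against 5.03 and 1.46 against 3.05 in MSCs, and at 3.73 against 5.40 and 1.39 against 3.43 in CD8+ T cells. The labelled cell types carried their markers. Pdgfrb, a receptor of mesenchymal cells, stood at 1.74 in Wt MSCs and 3.76 in Sipa1-/- MSCs, whereas the Pdgfra probe, at 3.01 and 4.52, was flagged for uneven background on both MSC arrays. Cd8b1 stood at 7.29 and 7.41 on the CD8+ T arrays. The Wt MSC array also carried B-lineage RNA. The summed linear signal of 17 measured B-lineage markers, in units of the array's 75th percentile, was 741 in Wt and 45.1 in Sipa1-/- MSCs. Both MSC arrays also held erythroid marker signal, summed to 1028 in Wt and 1088 in Sipa1-/- MSCs. Granulocyte markers summed to 758 and 851.

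Promoter sequences of 5 of the genes are shown, from RefSeq on GRCm38.p6, 5′ to 3′ on the strand of the gene. Postn, Thbs2, Mfap2 and Ogn had high ratios in both cell types and Emilin2 had ratios of opposite sign, and these 5 were picked after their values were seen. Capitals mark the letters TATAAA (the core promoter box), CCAAT (known for binding NF-Y), GGGCGG (known for binding Sp1) or TGACTCA (known for binding AP-1) on either strand, in the 250 bases before the most downstream start. TGAGTCA is TGACTCA read on the other strand.
Postn (chr3:54360857-54361106, plus strand): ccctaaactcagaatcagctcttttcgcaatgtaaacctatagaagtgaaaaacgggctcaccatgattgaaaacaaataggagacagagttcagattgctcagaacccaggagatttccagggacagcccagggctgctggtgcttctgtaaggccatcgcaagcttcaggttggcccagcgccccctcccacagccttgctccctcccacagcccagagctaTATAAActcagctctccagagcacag
Thbs2 (chr17:14694263-14694512, minus strand): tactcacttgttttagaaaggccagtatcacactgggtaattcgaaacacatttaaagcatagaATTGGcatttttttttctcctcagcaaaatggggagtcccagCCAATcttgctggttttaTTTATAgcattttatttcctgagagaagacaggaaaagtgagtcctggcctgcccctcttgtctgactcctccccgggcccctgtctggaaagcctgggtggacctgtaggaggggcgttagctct
Mfap2 (chr4:141010431-141010680, plus strand): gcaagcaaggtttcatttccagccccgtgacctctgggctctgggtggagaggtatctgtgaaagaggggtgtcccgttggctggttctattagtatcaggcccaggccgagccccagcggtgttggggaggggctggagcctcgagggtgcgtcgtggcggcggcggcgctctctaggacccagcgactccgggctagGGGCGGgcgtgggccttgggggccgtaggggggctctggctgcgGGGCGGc
Ogn (chr13:49607765-49608014, plus strand): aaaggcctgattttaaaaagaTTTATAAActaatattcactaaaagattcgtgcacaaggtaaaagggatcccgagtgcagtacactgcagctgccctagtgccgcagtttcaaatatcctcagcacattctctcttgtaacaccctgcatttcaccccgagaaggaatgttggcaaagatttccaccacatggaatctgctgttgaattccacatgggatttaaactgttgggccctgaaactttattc
Emilin2 (chr17:71311012-71311261, minus strand): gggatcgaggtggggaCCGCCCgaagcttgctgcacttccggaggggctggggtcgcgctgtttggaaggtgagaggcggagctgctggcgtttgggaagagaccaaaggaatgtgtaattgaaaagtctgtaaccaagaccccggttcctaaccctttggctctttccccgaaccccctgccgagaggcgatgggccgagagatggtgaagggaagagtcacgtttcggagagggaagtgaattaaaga
Only the Postn window held TATAAA close to the start, with its first base 26 bases before it. In Thbs2 the motif lay 126 bases before the start, read on the other strand. In Ogn it lay 229 and 227 bases before the start, the former on the other strand. Promoters of 30 of the 44 genes were in the table, as 42 windows. TATAAA occurred in 16.7% of these windows and in 12.4% of all 32851 windows, CCAAT in 23.8% and 33.8%, TGACTCA in 4.76% and 4.46%, and GGGCGG in 54.8% and 32.7%. These shares describe letters in a window and were not tested.

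In MSCs, the matrix genes stood higher on the Sipa1-/- array as a group. Of 43 measured genes, 43 had a ratio above 0, against 51.8% of all 15298 measured genes. At least 2-fold higher were 39 of 43, against 19.3% of all genes, and 0 were at least 2-fold lower, against 11.3%. The median log2 ratio was 1.81, a 3.50-fold higher signal, beside 0.04 over all genes, and the middle of the distribution was narrow, from 1.47 to 2.03 between the quartiles. The genes ranged from Matn2 at 2.72 to Acan at 0.46. The only others under 2-fold were Emilin2 at 0.96, Dcn at 0.86 and Sparc at 0.80. In tumor cell suspensions sorted in bulk, more matrix-producing cells in a gate and more RNA per such cell cannot be told apart.

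In CD8+ T cells the same genes, at far lower signal, were also mostly higher on the Sipa1-/- array, but less evenly. Of 40 measured genes, 38 had a ratio above 0, against 46.1% of 14339 genes. With a median shift, where the median of all genes was -0.17, it was 36 of 40. At least 2-fold higher were 23, against 2.66% of all genes. Thbs1 and Emilin2 were at least 2-fold lower, against 1.4% of all genes, although Thbs1 was at -0.86 with normexp correction and Emilin2 at -0.99 in the authors' series matrix. The median log2 ratio was 1.31, a 2.48-fold higher signal, beside -0.02 over all genes, and the range ran from Thbs1 at -1.14 to Cilp at 2.40. The normexp alternative changed the background correction, the spot signal and an added offset together. With it 14 matrix genes were at least 2-fold higher, against 108 of all 14339 genes, and the median was 0.73. Among genes above the median signal, which left 14 members, 11 were at least 2-fold higher, against 67 of 7169 genes. The median of these members was 1.57.

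**Figure D1:**
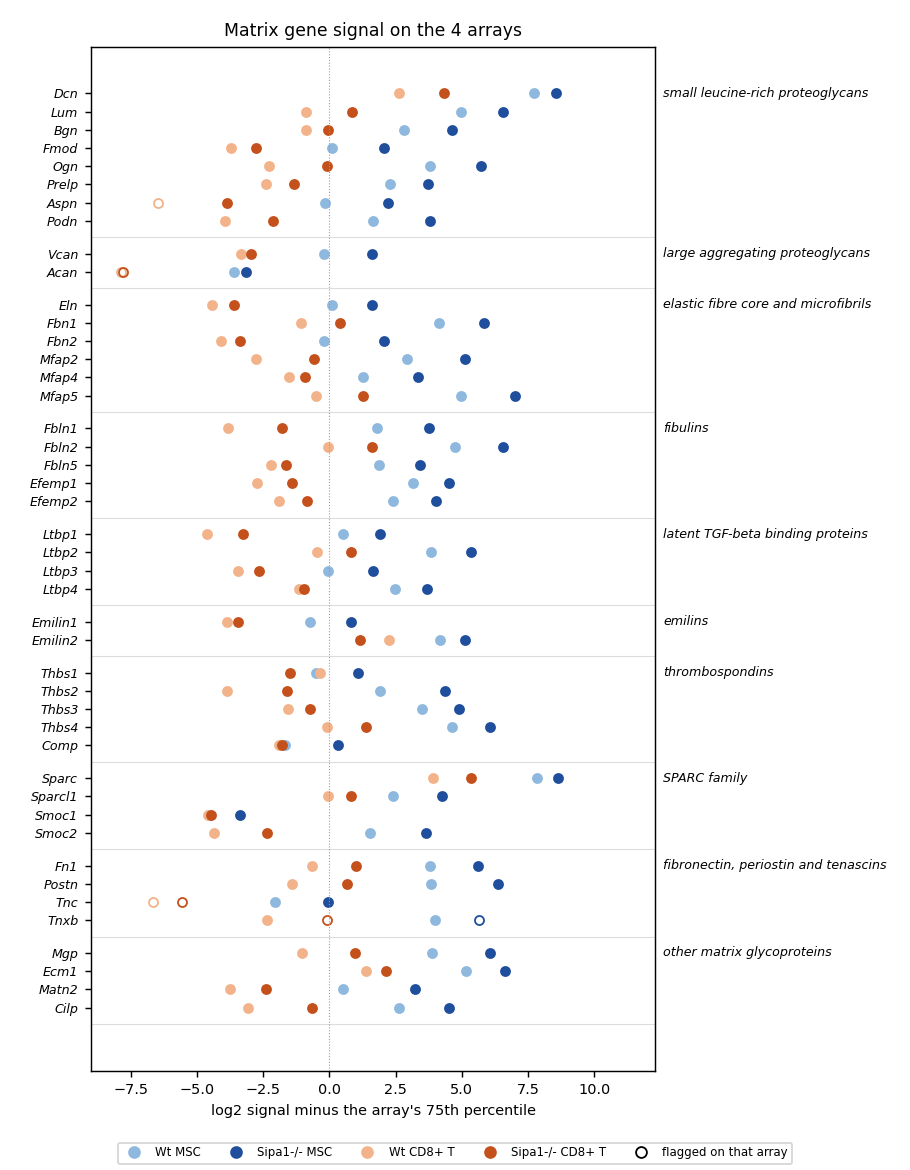
Signal of each of the 44 genes on the 4 arrays, as log2 signal minus the array's 75th percentile, with 1 point per array and genes grouped by role. For 40 genes the points average the probes that passed the flags on all 4 arrays, for Aspn, Acan, Tnc and Tnxb they average all probes, and open circles mark arrays where a probe was flagged. In 37 of the 40 genes the Sipa1-/- MSC array was highest, followed by Wt MSC, Sipa1-/- CD8+ T and Wt CD8+ T. Points should be compared along a row, since probes of different genes bind differently.

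Small leucine-rich proteoglycans were higher on the Sipa1-/- MSC array for 8 of 8 genes, with a median log2 ratio of 1.88, and on the Sipa1-/- CD8+ T array for 7 of 7, with a median of 1.68. Dcn, encoding decorin, which binds collagen fibrils and TGF-beta, stood at 7.71 in Wt and 8.57 in Sipa1-/- MSCs, and at 2.63 and 4.31 in the CD8+ T cells. It was 1 of 7 genes with the larger ratio in CD8+ T cells, 1.68 against 0.86. Lum, encoding lumican, another fibril-binding proteoglycan, stood at 4.98 and 6.54 in MSCs and at -0.89 and 0.85 in CD8+ T cells. Ogn (osteoglycin) had ratios of 1.94 and 2.18, in MSCs from 3.79 to 5.72 and in CD8+ T cells from -2.29 to -0.11. Both of these stood higher on each Sipa1-/- array than on its Wt array by 1.5 or more. Bgn (biglycan) and Fmod (fibromodulin) differed more in MSCs, by 1.83 and 1.95, than in CD8+ T cells, where the ratios were 0.86 and 0.92. Podn (podocan) had ratios of 2.13 and 1.80, and Prelp, which anchors basement membranes to connective tissue, of 1.43 and 1.05. Aspn (asporin) went from -0.16 to 2.20 in MSCs. It was not well above background on the Wt CD8+ T array and stood at -3.85 on the Sipa1-/- array, so that it was at least 3.28-fold higher there, where the bound sets the Sipa1-/- signal against the lowest signal well above background on the Wt array. Several of these genes are neighbours on their chromosomes. In the RefSeq order no protein-coding gene lies between Dcn and Lum or between Fmod and Prelp, and 1 gene, Omd, lies between Ogn and Aspn.

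The large aggregating proteoglycans, which carry many glycosaminoglycan chains and bind hyaluronan, were less uniform. Vcan (versican) stood at -0.96 on the Wt and 0.89 on the Sipa1-/- MSC array over 3 probes, a ratio of 1.85, and at -3.33 and -2.95 on the CD8+ T arrays over 2 probes, a ratio of 0.38. Acan, encoding the cartilage proteoglycan aggrecan, had the lowest MSC ratio of all members, 0.46 from -3.60 to -3.14, and was not well above background on either CD8+ T array.

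The elastic fibre core and its microfibrils were higher on the Sipa1-/- MSC array for 6 of 6 genes, all at least 2-fold, with a median of 2.05. Eln, encoding elastin, stood at 0.30 and 1.94 in MSCs and, on 1 of its 2 probes, at -4.45 and -3.62 in CD8+ T cells. Fbn1, encoding fibrillin-1, the main microfibril protein after birth, went from 4.14 to 5.85 and from -1.08 to 0.40. Its 2 probes gave nearly equal ratios, 1.65 and 1.76 in MSCs, then 1.47 and 1.48 for CD8+ T. Fbn2 had ratios of 2.19 and 0.73. In the CD8+ T pair Eln, Fbn2, Mfap2 and Ecm1 each rested on 1 of 2 probes. Mfap2 and Mfap5, which encode microfibril-associated glycoproteins, had ratios of 2.21 and 2.18, and of 2.04 and 1.77. Mfap5 stood at 4.97 and 7.01 on the MSC arrays and at -0.51 and 1.27 on the CD8+ T arrays. Mfap4, a glycoprotein that binds elastin and collagen, differed by 2.06 in MSCs and by 0.61 in CD8+ T cells.

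The fibulins link elastin, fibrillin and cells, and 5 of 5 were at least 2-fold higher in Sipa1-/- MSCs and 4 of 5 in Sipa1-/- CD8+ T cells. Fbln1 went in MSCs from 1.80 to 3.76 and in CD8+ T cells from -3.82 to -1.80, ratios of 1.95 and 2.02. Fbln2 went from 4.75 to 6.56 and from -0.05 to 1.61. Efemp1 and Efemp2 had MSC ratios of 1.39 and 1.61 and CD8+ T ratios of 1.34 and 1.03. Fbln5, needed to assemble elastic fibres, was the exception, with 1.56 in MSCs and 0.56 in CD8+ T cells.

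Latent TGF-beta binding proteins had lower ratios, with a median of 1.45 in the MSC pair and 1.04 in the CD8+ T pair, although 4 of 4 were at least 2-fold higher in Sipa1-/- MSCs. Ltbp1 stood at 0.51 and 1.91 in MSCs and at -4.62 and -3.26 in CD8+ T cells. Ltbp2, which sits in the microfibril without carrying latent TGF-beta, stood at 3.84 and 5.35 and at -0.47 and 0.80. The remaining 2 differed between the cell types, since Ltbp3 had ratios of 1.72 and 0.79, and Ltbp4 of 1.20 and 0.19. Of the emilins, glycoproteins at the interface of elastin and microfibril, Emilin1 was higher in both, by 1.55 and 0.43. Emilin2 went from 4.17 to 5.13 in MSCs but from 2.26 to 1.14 in CD8+ T cells, a 2.17-fold lower signal on 1 probe.

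Thrombospondins are secreted glycoproteins that bind matrix, proteases and cell receptors. In MSCs 5 of 5 were at least 2-fold higher on the Sipa1-/- array, with a median of 1.61, and in CD8+ T cells 2 of 5 were. Thbs2 went in MSCs from 1.93 to 4.36 and in CD8+ T cells from -3.86 to -1.60. Thbs4 went from 4.65 to 6.07 and from -0.10 to 1.38, and Thbs3 from 3.50 to 4.90 and from -1.58 to -0.72. Comp, the cartilage and tendon member of the family, had a ratio of 2.01 in MSCs, from -1.68 to 0.33, while it stood at -1.89 and -1.78 on the CD8+ T arrays. Thbs1, which activates latent TGF-beta and is also made by platelets and myeloid cells, went in MSCs from -0.52 to 1.09 and in CD8+ T cells from -0.35 to -1.49. Its 2 probes had MSC ratios of 1.59 and 1.63 and CD8+ T ratios of -1.34 and -0.94. This pattern of past 2-fold up in the MSC pair and past 2-fold down in the CD8+ T pair was seen in 18 of 13781 genes, Thbs1 among them. Granulocyte markers moved the same way as Thbs1 and Emilin2 in CD8+ T cells. Of 14 measured markers, 11 had a Sipa1-/- signal below the Wt one by 2-fold or more and 0 were 2-fold higher, and their summed signal was 658 in Wt and 343 in Sipa1-/- cells. In MSCs the sums were 758 and 851. Of their defining markers, S100a8 went from 6.99 to 5.52 and S100a9 from 8.38 to 7.33 on the CD8+ T arrays, while Csf3r stood at 6.72 and 6.61. Erythroid markers were at least 2-fold lower in 7 of 10, with summed signals of 33.2 and 15.7. The part of granulocyte and erythroid RNA in the lower Thbs1 and Emilin2 signals was not tested.

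Sparc and its relatives are calcium-binding matricellular proteins. Sparc, which binds collagen during fibril assembly, went in MSCs from 7.84 to 8.64 and in CD8+ T cells from 3.93 to 5.35. Its 2 probes disagreed in MSCs, since the probe with the higher signal stood at 8.60 and 8.69, a ratio of 0.09, and the other at 7.08 and 8.60, a ratio of 1.52. In CD8+ T cells they gave 1.11 and 1.74. Sparcl1 was printed on 10 spots and so had the most spots of the genes. It went in MSCs from 2.41 ± 0.09 to 4.24 ± 0.09 and in CD8+ T cells from -0.04 ± 0.13 to 0.81 ± 0.12 (SD over spots of 1 array, n = 10). The spots of the arrays compared did not overlap, with a highest Wt spot of 2.60 and a lowest Sipa1-/- spot of 4.10 in MSCs, although this covers spot noise within 1 hybridization. Smoc2 had ratios of 2.13 and 2.01, from 1.53 to 3.65 and from -4.35 to -2.34. Smoc1, an inhibitor of BMP signaling, was higher by 1.17 in MSCs, from -4.54 to -3.37, and stood at -4.56 and -4.45 in CD8+ T cells. It was read by 1 probe, at signals not far above the lowest that were well above background.

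Periostin, fibronectin and tenascins showed some of the larger ratios. Postn, encoding periostin, which cross-links collagen and signals to integrins, went from 3.84 to 6.38 in MSCs, a 5.83-fold higher signal, and from -1.42 to 0.66 in CD8+ T cells, a 4.23-fold higher signal. Its 3 probes lay between 2.39 and 2.71 in MSCs and between 2.05 and 2.11 in CD8+ T cells. Fn1, encoding fibronectin, went from 3.80 to 5.62 and from -0.67 to 1.00, and its 3 probes spread from 1.07 to 2.31 in MSCs. The brightest of them, at 7.01 and 8.07, had the smallest ratio. Tnc, encoding tenascin-C, went from -2.04 to -0.07 in MSCs, a ratio of 1.97. It was at least 1.69-fold higher on the Sipa1-/- CD8+ T array, since it was not well above background on the Wt one. This bound rested on 1 of 2 probes, at -4.81 on the Sipa1-/- array, where the lowest signal well above background was -5.49. The other probe was not well above background on either CD8+ T array. Tnxb, encoding tenascin-X of connective tissue, was flagged for uneven background on both Sipa1-/- arrays and counted in neither pair. Its unfiltered signals were 3.98 and 5.63 in MSCs and -2.37 and -0.11 in CD8+ T cells.

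The remaining glycoproteins held the largest ratio of each pair. Matn2 (matrilin-2), a filament-forming adaptor protein, went from 0.53 to 3.25 in MSCs, a 6.6-fold higher signal, and from -3.76 to -2.40 in CD8+ T cells. Cilp, a matrix protein of cartilage and fibrous tissue that binds TGF-beta, went in MSCs from 2.62 to 4.5 and in CD8+ T cells from -3.05 to -0.66, a 5.27-fold higher signal. Mgp, an inhibitor of calcification, had ratios of 2.18 and 2.03, from 3.88 to 6.06 and from -1.05 to 0.98. Ecm1, a secreted glycoprotein of skin and vessels, had ratios of 1.64 and 0.74.

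**Figure D2:**
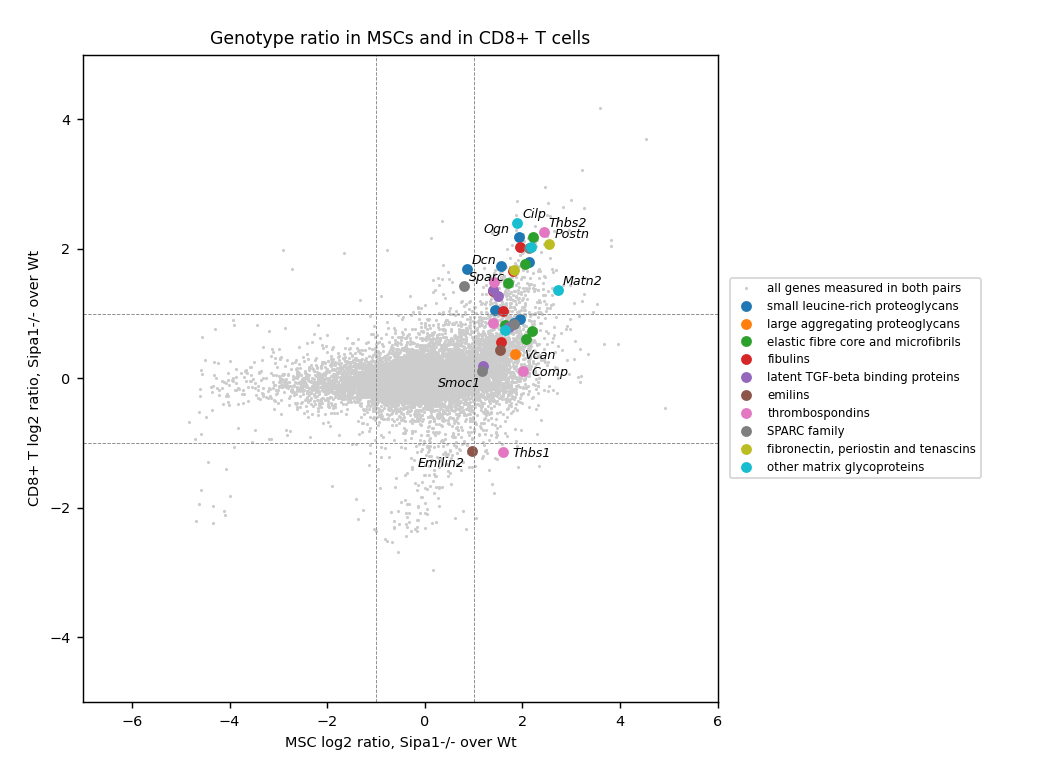
Log2 ratio of Sipa1-/- over Wt in MSCs (horizontal) and CD8+ T cells (vertical), with 1 point per gene, colored by role for the 40 matrix genes measured in both pairs and gray for all 13781 genes. Dashed lines mark 2-fold differences. The matrix genes lie to the right of 0 without exception, 21 of them in the upper right field past 2-fold in both, and Thbs1 and Emilin2 lie below the lower line.

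At least 2-fold higher on the Sipa1-/- array of both cell types were 21 of 40 matrix genes measured in both pairs, against 2.26% of 13781 genes. Another 15 passed 2-fold in MSCs and lay within 2-fold in CD8+ T cells, and Thbs1 passed it in opposite directions. Dcn and Sparc passed it upward in CD8+ T cells only, although 1 of the 2 Sparc probes, at 1.52, passed it in MSCs. Dcn and Sparc had the highest signals of the matrix genes on the Sipa1-/- MSC array, at 8.57 and 8.64. Whether their lower MSC ratios go with signal level was not tested. The ratio was larger in MSCs for 33 of the 40 genes and larger in CD8+ T cells for 7, and the median of the MSC ratio minus the CD8+ T ratio was 0.42. Across the 40 genes the 2 ratios had a Pearson correlation of 0.42 and a Spearman correlation of 0.42, and across all 13781 genes the Pearson correlation was 0.36. The points are genes of the same 4 arrays, not independent samples, and these values describe the plot of one ratio against the other.

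**Figure D3:**
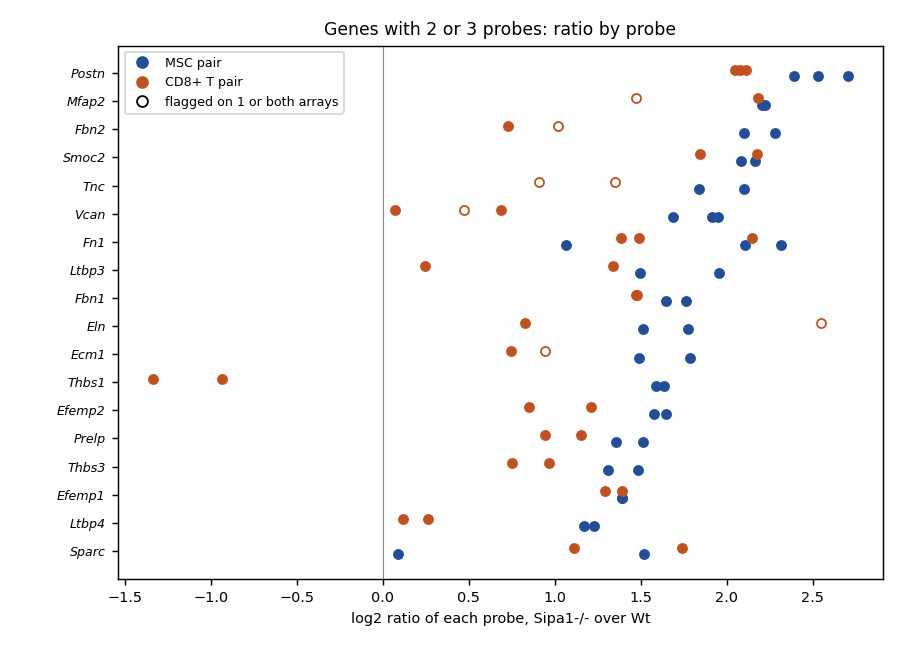
Log2 ratio of Sipa1-/- over Wt for each probe of the 18 genes with 2 or 3 probes, in MSCs (blue) and CD8+ T cells (orange), with open circles for probes flagged on 1 or both arrays of the pair. Probes of Postn lie close together in each pair, those of Sparc and Fn1 are spread in MSCs, and both Thbs1 probes lie below 0 in CD8+ T cells.

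Probes of the same gene bore on how firmly a ratio could be read, since 26 of the 44 genes had 1 probe. Apart from Sparc and Fn1, Ltbp3 had probes at 1.49 and 1.95 in MSCs and at 0.24 and 1.34 in CD8+ T cells. Vcan had probes at 0.07 and 0.69 in CD8+ T cells. No gene with several probes that passed the flags had probes of opposite sign in either pair, and Efemp1 had 2 probes at 1.39 in MSCs.

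Compared within a genotype, the matrix genes were far higher in MSCs than in CD8+ T cells. In Wt mice 40 of 41 measured genes had a ratio of MSC over CD8+ T above 0, against 46.6% of 14225 genes. With a median shift, where the median of all genes was -0.29, it was 38 of 41. At least 2-fold higher in MSCs were 38, against 17.3% of all genes, and 0 were at least 2-fold lower, against 12.8%. In Sipa1-/- mice 42 of 42 were above 0, against 42.9% of 14300 genes. All 42 were at least 2-fold higher, against 21.9%, and 0 were at least 2-fold lower, against 18.7%. The median ratio was 4.56 in Wt mice, so that the CD8+ T signal was 4.25% of the MSC signal at the median, and 5.06 in Sipa1-/- mice, with 3.0%. Ogn had a ratio of 6.08 in Wt and 5.83 in Sipa1-/- mice, Efemp1 of 5.88 and 5.93, and Thbs2 of 5.78 and 5.96. These genes stood high on both MSC arrays and low on both CD8+ T arrays.

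The exceptions in Wt mice were Thbs1 at -0.17, Smoc1 at 0.02 and Comp at 0.21. In Sipa1-/- mice the same genes had ratios of 2.58, 1.08 and 2.11. Aspn was at least 42.1-fold, Tnc at least 11.5-fold and Acan at least 3.89-fold higher in MSCs than in CD8+ T cells of Wt mice, since their CD8+ T signals were not well above background, and Acan was at least 5.10-fold higher in Sipa1-/- mice. Of 40 genes measured on all arrays, 37 had the order Sipa1-/- MSC, Wt MSC, Sipa1-/- CD8+ T and Wt CD8+ T from high to low, which 14.3% of 13766 genes had. The others were Emilin2, Smoc1 and Thbs1. The neighbouring steps of this order did not separate for Comp, at -1.89 and -1.78 on the CD8+ T arrays and -1.68 on the Wt MSC array.

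**Figure D4:**
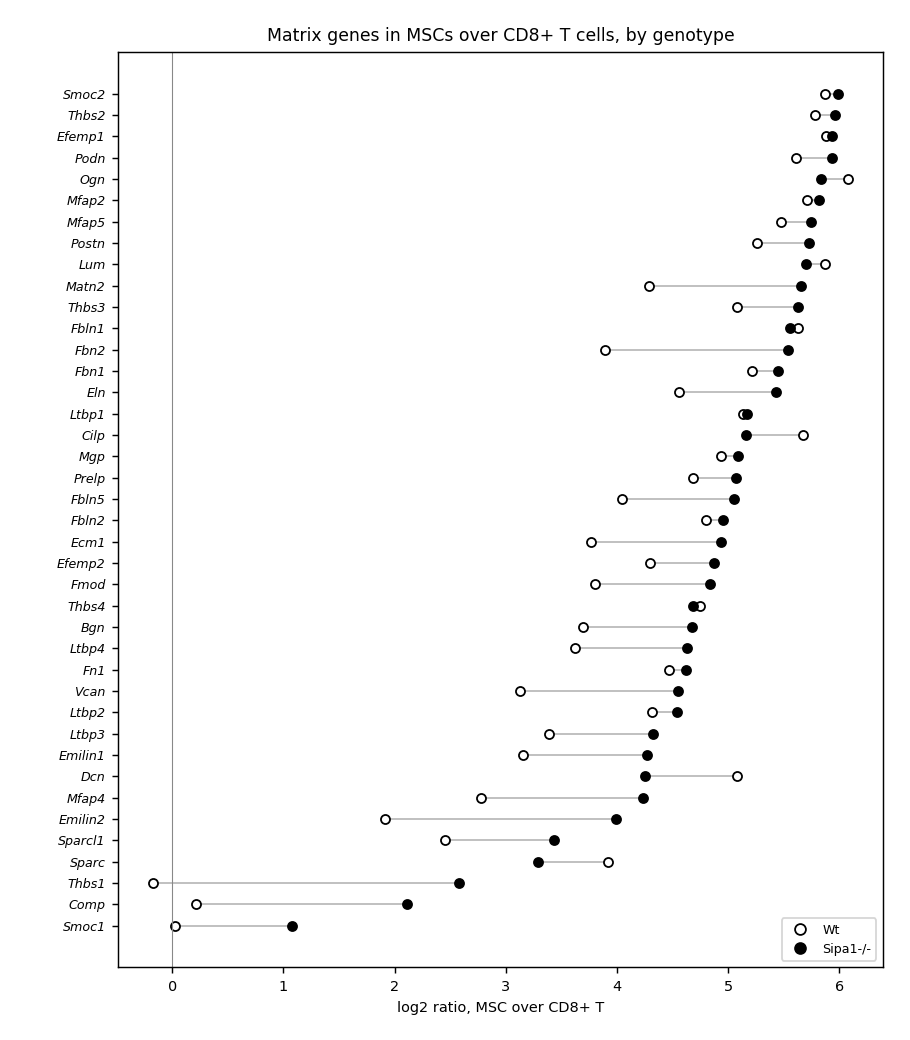
Log2 ratio of MSC over CD8+ T for the 40 genes measured on all 4 arrays, with open circles for Wt and filled circles for Sipa1-/- mice, joined by a line for each gene and sorted by the Sipa1-/- ratio. Eln, Fbn2, Mfap2 and Ecm1 rest on 1 probe in Wt and on 2 in Sipa1-/- mice, so their lines also hold a change of probes. Most genes lie between 3 and 6 in both genotypes, and Thbs1, Comp and Smoc1 are near 0 in Wt mice and above 1 in Sipa1-/- mice.

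Most fibroblast markers outside the matrix genes were also higher on the Sipa1-/- arrays. Over all genes, 19.3% were at least 2-fold higher in the MSC pair and 2.66% in the CD8+ T pair. Of 23 markers measured in MSCs, 23 were higher on the Sipa1-/- array and 20 at least 2-fold, with a median of 1.66, and the summed signal was 1017 in Wt and 1890 in Sipa1-/- MSCs. Of 25 measured in CD8+ T cells, 23 were higher and 20 at least 2-fold, with a median of 1.40 and sums of 231 and 332. Thy1, which the T cell list also holds, made up 165 and 176 of these sums, and without it they were 65.2 and 156. In MSCs the fibrillar collagen markers Col1a1, Col1a2 and Col3a1 differed less than the matrix genes. Col1a1 stood at 6.88 and 7.15, a ratio of 0.26. Col1a2 stood at 8.56 and 8.91, a ratio of 0.35, and Col3a1 at 7.32 and 7.70, a ratio of 0.38. The fibrillar collagen markers Col5a1, at 5.64 and 7.22, and Col5a2, at 0.75 and 3.08, differed more. In CD8+ T cells, at lower signal, Col1a1, Col1a2 and Col3a1 had ratios of 1.55, 1.54 and 1.74. Whether their lower MSC ratios go with signal level was not tested. Col1a2, Col3a1, Col5a1, Col5a2 and Thy1 are named because of their values. The defining markers were above background on all arrays, Pdgfra at -1.88 and -0.44 and Pdgfrb at -2.77 and -1.09 on the Wt and Sipa1-/- CD8+ T arrays, and Col1a1 at 2.74 and 4.29. T cell markers differed little between the CD8+ T arrays, with 0 of 18 past 2-fold and sums of 873 and 933. The part of fibroblast RNA in the CD8+ T values of the matrix genes was not tested.

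In MSCs, B-lineage markers went the other way, with 17 of 17 past 2-fold lower in the Sipa1-/- sample and a median of -4.22, among them Cd79b from 6.65 to 2.49 and Vpreb1 from 7.57 to 3.45. Common leukocyte markers were lower in 16 of 16, with a median of -1.99 and sums of 187 and 40.2. Pericyte and smooth muscle markers had a median of 1.09 and skeletal muscle markers of 0.70, with 6 of 11 and 3 of 16 at least 2-fold higher. Chondrocyte and tendon markers had a median of 0.78, with 3 of 7 at least 2-fold higher, and Schwann cell markers of 1.09, with 5 of 9. Endothelial markers split, with 4 at least 2-fold higher and 2 lower of 13, a range from -3.83 to 2.14 and a median of 0.69, and so did T cell markers, with 5 higher and 5 lower of 16, a range from -3.52 to 1.43 and a median of 0.61. Macrophage markers had a median of 1.04, keratinocyte markers of 0.61, adipocyte markers of 0.31 and erythroid markers of -0.13. The part of these cells in the MSC values of the matrix genes was not tested.

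**Figure D5:**
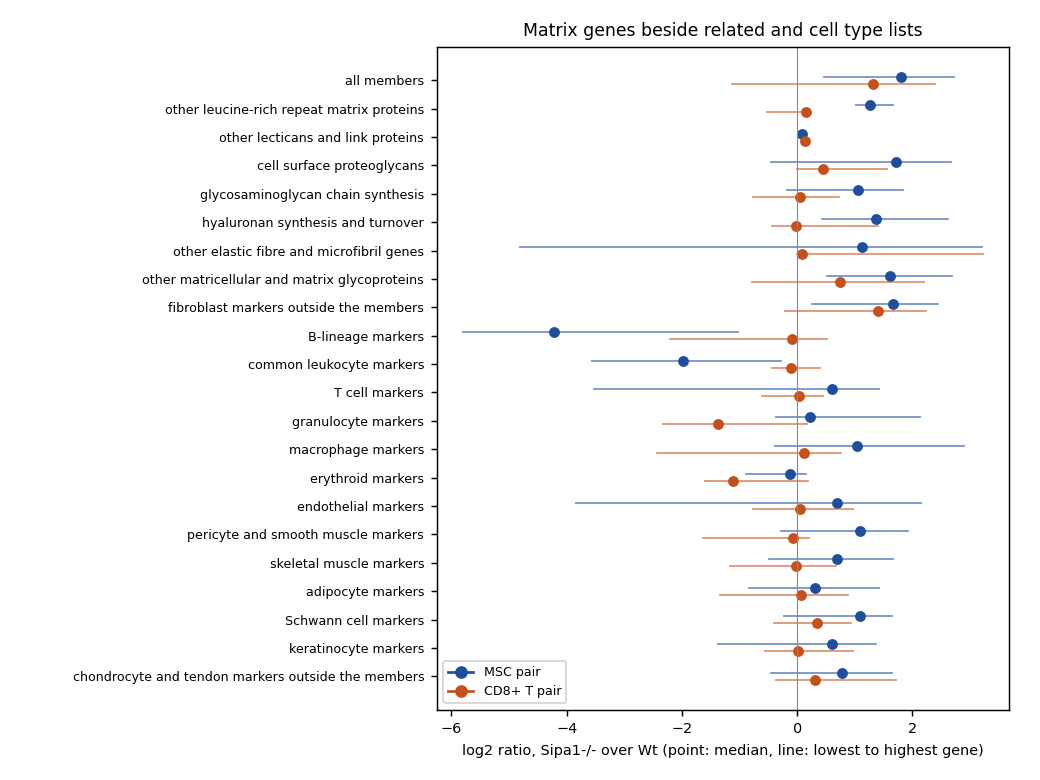
Log2 ratio of Sipa1-/- over Wt for the matrix genes and for lists of related genes and of cell type markers, in MSCs (blue) and CD8+ T cells (orange), with the point at the median and the line from the lowest to the highest gene of the list. The matrix genes and the fibroblast markers have medians above 1 in both cell types, B-lineage markers have a median of -4.22 in MSCs, and granulocyte markers one of -1.38 in CD8+ T cells.

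Other genes of the same pathways were mostly higher on the Sipa1-/- MSC array as well. The share of all genes at least 2-fold higher was 19.3% in the MSC pair and 2.66% in the CD8+ T pair. Of 24 other matricellular and matrix glycoprotein genes, 24 were higher and 22 at least 2-fold, with a median of 1.62. Some genes of this list are also in the fibroblast list, and other related lists share genes with the pericyte or endothelial lists. Spon1 (spondin 1) went from -2.0 to 0.69, Cthrc1, a collagen triple helix protein of activated fibroblasts, from 2.08 to 4.68, and Spp1 (osteopontin) from 2.72 to 4.98. In CD8+ T cells 8 of 20 were at least 2-fold higher, with a median of 0.74. Of the cell surface proteoglycans, which hold growth factors at the membrane, 9 of 13 passed 2-fold upward in the MSC pair, where the median was 1.72, among them Gpc6 at 2.67, Gpc1 at 1.98 and Sdc2 at 1.97, and 2 of 11 in CD8+ T cells with a median of 0.46.

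Genes that build glycosaminoglycan chains had 14 of 26 past 2-fold upward in the MSC pair, where the median was 1.05, and 0 of 26 in CD8+ T cells, with a median of 0.04. Over all genes these shares were 19.3% and 2.66%. Chpf, which polymerizes chondroitin, had an MSC ratio of 1.83, Chst11 of 1.68 and Dsel of 1.63. Hyaluronan genes had 4 of 6 at least 2-fold higher in MSCs, with the synthase Has1 at 2.61, the hyaluronidase Hyal1 at 1.40 and Has2 at 1.38, and 1 of 4 in CD8+ T cells. Other leucine-rich repeat matrix proteins were at least 2-fold higher in MSCs in 6 of 6 genes, with a median of 1.26, including Omd at 1.67 and Ecm2 at 1.59, neighbours of Ogn and Aspn, and Podnl1 at 1.26. In CD8+ T cells 3 of them were measured, with a median of 0.14. Of other elastic fibre genes, 6 of 11 passed 2-fold upward and 1 downward in the MSC pair. Fbln7, another fibulin, stood at 1.05 and 4.26 in MSCs and at -4.40 and -1.18 in CD8+ T cells, ratios of 3.21 and 3.22, both above those of any of the 44 genes. Mmrn1, a multimerin of platelets and endothelial cells, went from 0.00 to -4.81 in MSCs, and Mmrn2 had a ratio of 2.14. Of other lecticans and link proteins Hapln3 alone was measured, with ratios of 0.08 and 0.14.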

How the data were processed

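RNA of 4 sorted populations was hybridized to SurePrint G3 Mouse arrays, 1 per condition, on 1 slide in 1 scan. The deposited scanner values are spot intensities, which the authors' Feature Extraction software (12.0.3.1 per the file headers, 9.1 per the labels) had corrected for background. The deposited series matrix holds the same intensities times 1 constant per array (1.13, 1.34, 0.941 and 1.13 for Wt MSC, Sipa1-/- MSC, Wt CD8+ T and Sipa1-/- CD8+ T), with column medians of 41.0, 52.0, 25.5 and 30.9. The sources used here give no rule for these constants.

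Here, log2 intensities were shifted by the 75th percentile over 59305 non-control spots. A probe was kept by the study's flags for saturation, uniformity and signal above background on both arrays of a pair, which drops dim genes, and spots and then probes were averaged per gene. Symbols came from RefSeq accessions, for 57.6% of spots. Counts used a log2 ratio of 1, and all 44 genes are accounted for. Of each related list at most the 3 genes with the largest absolute MSC ratio are named, and of each marker list genes among the first 3, of which some are not reported here. Genes, lists and sequences were chosen with earlier results of these data known. Alternatives were a median shift, quantile normalization, the series matrix, normexp with an offset of 50 on median spot signals, looser flags, saturated spots kept, only genes above the median signal, and the brightest probe. Python 3.11.15 with numpy 2.4.6 and pandas 2.3.3, and R 4.3.3 with limma 3.58.1, were used.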

Additional observations from a re-analysis of the deposited data

Results flagged for a closer look

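Emilin2 and Thbs1 were the members with opposite signs in the MSC and CD8+ T pairs. For Emilin2 the log2 ratio was 0.96 in MSCs and -1.12 in CD8+ T cells. For Thbs1 it was 1.61 and -1.14. Each ratio compares 1 array with 1 array, and whether the ratios of the cell types differ was not tested.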

How the results depend on the processing

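No paired analysis was possible because every population was hybridized once, and no array could be left out. Over the 9 alternatives the member medians, in the order MSC, CD8+ T, MSC over CD8+ T in Wt and MSC over CD8+ T in Sipa1-/- mice, stayed above 0 and ranged from 1.58 to 2.01, from 0.73 to 1.57, from 3.84 to 5.01 and from 4.37 to 5.59. In the same order they were 1.67, 1.16, 4.33 and 4.84 with a median shift, 1.91, 1.19, 4.48 and 5.18 with quantile normalization, 2.01, 1.44, 5.01 and 5.59 with the series matrix, and 1.58, 0.73, 3.84 and 4.37 with normexp. With flags asked of 1 array the CD8+ T median was 1.36 and the Wt cell type median 4.66, which was also 4.66 without flags. With the brightest probe the Sipa1-/- cell type median was 5.11. Keeping saturated spots could change no value, because no spot was saturated. Among genes above the median signal, where fewer genes remained, the CD8+ T median was 1.57 and the Wt cell type median 4.77. In CD8+ T cells, 14 members were at least 2-fold higher with normexp, against 108 of 14339 genes. When only genes above the median signal were kept, 11 were, against 67 of 7169 genes. At least 2-fold lower was 1 member with the series matrix (Thbs1), against 156 of 14339 genes, and 1 with normexp (Emilin2), against 98. In the brighter genes above the median signal it was 1 (Emilin2), against 70 of 7169 genes. The cause of these moves was not tested.

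The median shift moved the median of all genes by -0.14, -0.15, -0.23 and -0.22 and the series matrix by 0.21, 0.13, 0.45 and 0.53. Both move every gene of a pair alike, so the distance of the member medians from those of all genes could not change. Relative to all genes, the member medians over the scalings lay between 1.55 and 1.91, 0.73 and 1.33, 3.93 and 4.62, and 4.57 and 5.41. The share of higher genes among all genes past 2-fold was 63.1%, 65.5%, 57.4% and 54.0%. It was 74.1%, 76.3%, 76.6% and 76.3% with the series matrix, while in the median shift the last 3 were 52.5%, 45.5% and 42.9%. In CD8+ T cells it was 48.9% for genes above the median signal and 52.4% with normexp. Members near 0 changed sign, with Comp and Smoc1 in CD8+ T cells at -0.04 and -0.03 under the median shift. In Wt mice Thbs1 was at 0.28 in MSC over CD8+ T with the series matrix, and Smoc1 at -0.21 under the median shift. The order over the 4 arrays held for 36 members under the median shift and normexp and for 38 with the series matrix. In the CD8+ T pair 3 of the 44 members, Aspn, Acan and Tnc, had no ratio because their signal was not well above background on at least 1 array.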
